A study of Mus musculus with 18 samples.

Results

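The 10 genes described here are targets of the unfolded protein response of the endoplasmic reticulum (ER): Hspa5, Hsp90b1, Calr, Pdia4, Sdf2l1, Creld2, Manf, Herpud1, Dnajb9 and Xbp1. They were chosen by name as known targets of the transcription factors ATF6 and XBP1, with earlier results of these data known. Each matched 1 row of the 18204 genes listed, and all 10 were among the 16383 genes tested. The samples were cells of the mouse macrophage line J774.1, either wildtype or with both C-terminal binding protein genes knocked out (Ctbp1/2 dKO), in 6 groups of 3 biological replicates. Cells of each genotype received the vehicle (PBS/DMSO), 1.5 mM MTOB, a methionine-related keto acid that binds where CTBPs take their substrate, or 250 µM 4-Cl-HIPP, a hydroxyimino acid with a chlorophenyl group that inhibits the same enzyme domain, for 4 h. All groups were grown in the same high-glucose medium with serum. The knockout placed a premature stop and a frameshift in both genes with Cas9 and was grown out from single cells. How many clones were used is not given in the sources used here, so genotype and clone cannot be told apart. Each genotype had 1 vehicle group, which served both inhibitors and the comparison of genotypes, so these comparisons share samples. MTOB was dissolved in PBS and 4-Cl-HIPP in DMSO, and whether the vehicle cells received both solvents is not clear. An effect of the solvent therefore cannot be told apart from that of an inhibitor. Expression is given as TPM, the number of transcripts of a gene per fixed total of transcripts, which corrects for gene length. TPM do not carry the sequencing depth, which is therefore unknown for each sample.

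Secretory and membrane proteins fold in the ER with the help of chaperones and disulphide isomerases. When unfolded proteins accumulate, the membrane sensors IRE1, ATF6 and PERK signal to the nucleus. IRE1 splices the Xbp1 mRNA and ATF6 is released by proteolysis, and the resulting transcription factors raise chaperones and components of ER-associated degradation, whereas PERK acts through ATF4 and CHOP. Macrophages need this machinery for surface receptors and cytokines, and the chaperone encoded by Hsp90b1 folds Toll-like receptors and integrins. Gene-level TPM do not separate spliced from unspliced Xbp1 mRNA, so the activity of IRE1 was not measured here.

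The control elements through which these factors act are shown first, because they are the sequence feature by which the group is known. Promoter windows of 300 bases, from 250 before to 50 after the annotated start, were taken from RefSeq (GRCm38.p6) and held 9 of the 10 genes, all but Manf. They were searched on both strands for 3 exact motifs. The ER stress response element (ERSE) is CCAAT and CCACG with 9 bases of any kind between them, its second form (ERSE-II) is ATTGG and CCACG with 1 base of any kind between them, and the unfolded protein response element (UPRE) is TGACGTGG. ERSE was found in 4 of the 9 windows and ERSE-II in 1, against 0.119% and 0.0365% of all 32851 windows in the table. The UPRE was in 0 of the 9 and in 0.676% of all windows. The genes were chosen as known targets of factors that act through these elements, so these shares are a description and no test. No 2 matches overlapped, and the fixed letters of each match are in capitals in the sequences below, which read 5′ to 3′ on the strand of the gene and include 20 bases on either side.
Hspa5, ERSE, chr2:34772005-34772063, plus strand: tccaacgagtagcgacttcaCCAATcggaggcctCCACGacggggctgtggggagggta
Hsp90b1, ERSE, chr10:86705618-86705676, minus strand: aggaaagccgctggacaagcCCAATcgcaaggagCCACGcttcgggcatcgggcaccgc
Hsp90b1, ERSE reversed, chr10:86705513-86705571, minus strand: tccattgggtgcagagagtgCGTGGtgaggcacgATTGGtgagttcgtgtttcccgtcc
Calr, ERSE reversed, chr8:84847055-84847113, minus strand: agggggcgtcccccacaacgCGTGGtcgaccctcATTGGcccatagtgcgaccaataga
Creld2, ERSE reversed, chr15:88819500-88819558, plus strand: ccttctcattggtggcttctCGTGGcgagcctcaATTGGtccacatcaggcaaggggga
Herpud1, ERSE-II, chr8:94386357-94386407, plus strand: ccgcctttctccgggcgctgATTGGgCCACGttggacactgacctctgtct
The matches began between 212 and 52 bases before the start. An exact match is a description of these letters, and its absence from the windows of Pdia4, Sdf2l1, Dnajb9 and Xbp1 says nothing about other or inexact elements.

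**Figure D1:**
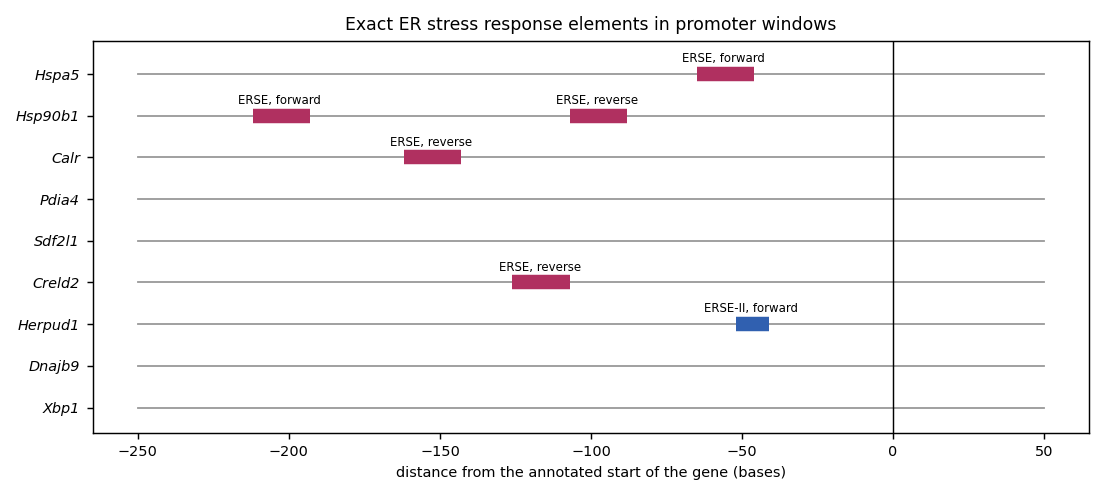
Position of exact ERSE (red) and ERSE-II (blue) matches in the 9 promoter windows, as distance in bases from the annotated start of each gene; forward and reverse give the orientation relative to the gene. Hspa5, Hsp90b1, Calr, Creld2 and Herpud1 hold a match and the other 4 windows hold none.

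The labels were checked first. Ctbp1 lay between 170.1 and 238.4 TPM in the 9 wildtype samples and between 19.66 and 31.47 TPM in the 9 dKO samples, and Ctbp2 between 87.78 and 96.86 TPM and between 68.5 and 81.94 TPM. A frameshift need not remove the mRNA, so the Ctbp2 level is a weak check of the label. All 7 macrophage markers examined were above 1 TPM in every sample, with sums of 2260 to 2590 TPM in wildtype and 2240 to 2550 TPM in dKO cells. Single markers moved with the groups. Between genotypes under vehicle, 3 of the 7 passed the adjusted p-value: Adgre1 (log2 fold change -1.59), Itgam (1.57) and Cd68 (0.21). Of all genes tested 10.7% passed it, or 14.6% of those whose mean normalized count was 10 or more. With MTOB, Adgre1 (1.79), Lyz2 (0.37) and Cd68 (0.15) rose in wildtype cells and Lyz2 (0.24) and Spi1 (0.34) in dKO cells. Of all genes tested, 7.26% in wildtype and 6.58% in dKO cells passed with MTOB, or 10.4% and 9.38% at that count. With 4-Cl-HIPP the smallest adjusted p-value of the 7 was 0.566 (limma). The part of these marker shifts in the results below was not tested. Of the 9 markers of fibroblasts, T cells, B cells and epithelia, 3 were listed, with summed levels of at most 2.07 TPM per list.

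Differences were tested with limma on log2(TPM + 1), fitted over all genes and samples, and adjusted p-values are Benjamini-Hochberg values over the 16383 genes. Following the study, called genes had to pass 0.05 in adjusted p-value and also 1.5 in fold change. Because most differences below are smaller than that, counts at the adjusted p-value alone are given as well.

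In wildtype cells under vehicle the group spanned a wide range of levels. Hspa5 and Calr stood highest, at 834 ± 37.8 and 831 ± 29.0 TPM (SD, n = 3), and their replicates overlapped. Hsp90b1 followed at 709 ± 35.1 TPM (SD, n = 3) and Manf at 365 ± 16.4 TPM (SD, n = 3). Sdf2l1 and Xbp1 came next with 179 ± 9.27 and 172 ± 9.55 TPM (SD, n = 3), again overlapping, ahead of Pdia4, Creld2 and Herpud1 with 133 ± 4.73, 105 ± 3.65 and 58.9 ± 6.92 TPM (SD, n = 3). Dnajb9 was lowest by far at 6.49 ± 0.434 TPM (SD, n = 3). Apart from the 2 overlapping pairs, replicates of neighbours in this order did not overlap.

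**Figure D2:**
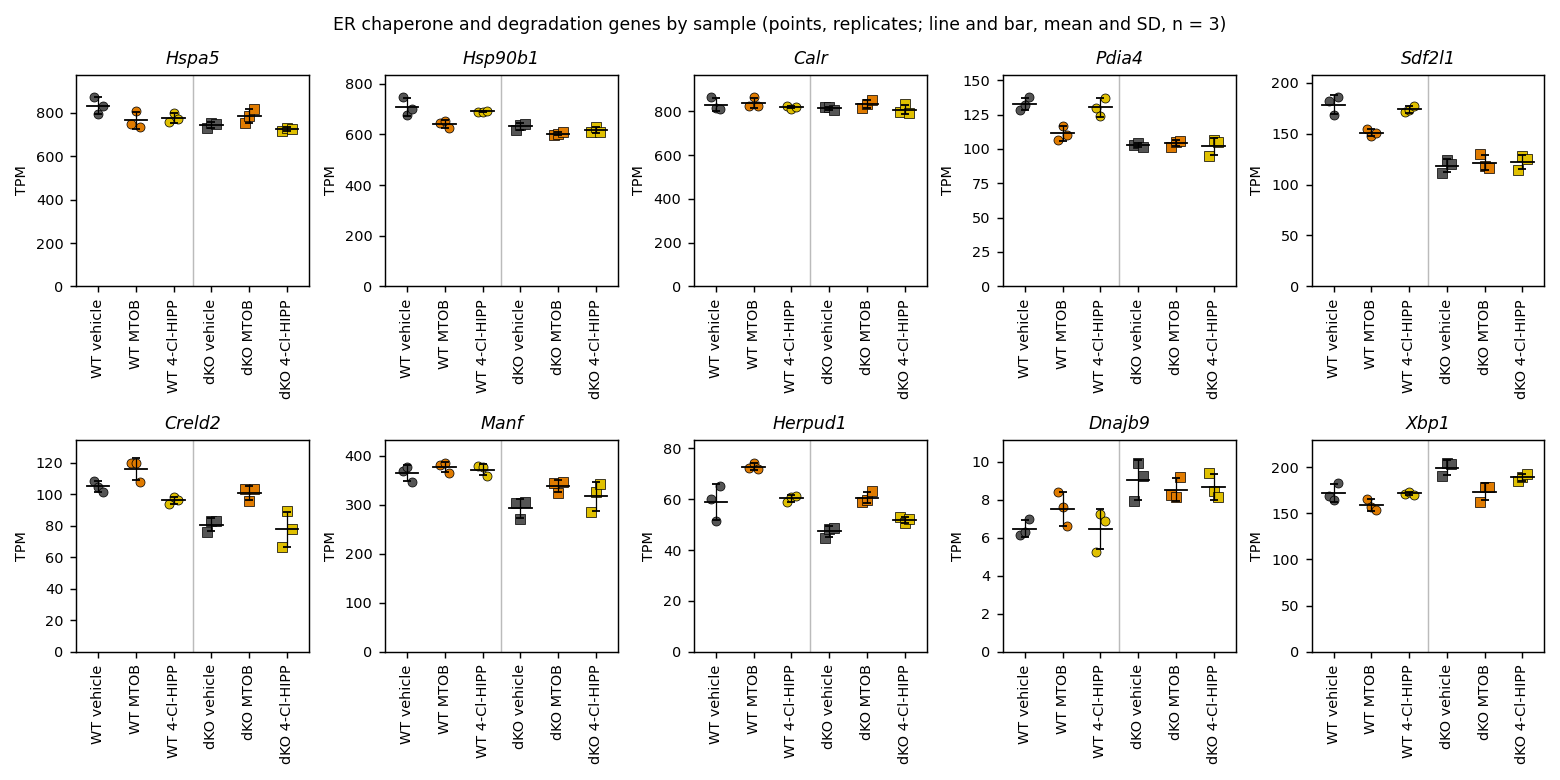
TPM (y axes, each from 0) of the 10 genes in all 18 samples, by genotype (WT, wildtype, circles; dKO, squares) and treatment; points are replicates, the line and bar are the mean and SD of 3. Sdf2l1, Pdia4 and Manf lie lower in every dKO sample than in any wildtype sample, and Herpud1 is raised by MTOB in both genotypes.

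Most of these genes were expressed at a lower level in dKO cells already without inhibitor. Under vehicle, 7 of the 10 genes were lower and 2, Xbp1 and Dnajb9, were higher in dKO than in wildtype cells at an adjusted p-value below 0.05, and Calr was not past it (limma). Of all genes tested, 3.72% were lower and 7.01% higher by the same rule, 10.7% together, or 14.6% of the genes whose mean normalized count was 10 or more. All 9 also had an unadjusted p-value below 0.05, beside 21.4% of all genes. The median log2 fold change of the 10 genes was -0.24, against 0.01 over all genes tested. With the fold-change limit 1 of the 10 was called, Sdf2l1, against 4.83% of all genes. In bulk RNA, fewer cells expressing a gene and less RNA per cell cannot be told apart.

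Among the chaperones, the largest difference belonged to Sdf2l1, which encodes a partner of BiP and ERdj3 that keeps unfolded proteins soluble. It measured 181.8, 168.1 and 185.7 TPM in the wildtype and 111.1, 123.6 and 120.5 TPM in the dKO replicates (log2 fold change -0.59, SE 0.06, adjusted p = 4.83e-06, limma). The groups lay far apart, but the value was so close to the fold-change limit (log2 0.585) that the call at that limit was lost with a pseudocount of 5 (-0.573) and without wildtype vehicle replicate 1 (-0.575), wildtype vehicle replicate 3 (-0.56) or dKO vehicle replicate 1 (-0.544). Its adjusted p-value stayed below 0.05 in all of these.

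Pdia4, a protein disulphide isomerase, had 128.2, 132.2 and 137.6 TPM in wildtype and 103, 104.5 and 101.6 TPM in dKO cells. All dKO replicates were thus below all wildtype replicates (log2 fold change -0.36, SE 0.05, adjusted p = 0.000133, limma). Creld2, an ER-resident protein with disulphide isomerase activity, had 108.5, 104.7 and 101.2 against 76.1, 83.13 and 82.72 TPM (log2 fold change -0.37, SE 0.08, adjusted p = 0.00595, limma). Manf, a BiP-binding factor that cells release under ER stress, had 370.1, 378.2 and 346.6 against 302.9, 271.3 and 305 TPM (log2 fold change -0.32, SE 0.06, adjusted p = 0.00361, limma). Sdf2l1, Pdia4, Creld2 and Manf were the 4 genes whose difference between genotypes passed the adjusted p-value in all 26 alternative settings tried.

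The large general chaperones differed less. Hspa5, which encodes BiP, the HSP70 of the ER that also holds the sensors inactive, had 872.4, 796.8 and 832.9 TPM in wildtype and 729.2, 752.1 and 750 TPM in dKO cells (log2 fold change -0.16, SE 0.04, adjusted p = 0.0161, limma). The replicates did not overlap, yet the adjusted p-value rose to 0.0874 without wildtype vehicle replicate 1, to 0.0679 without dKO vehicle replicate 1 and to 0.0759 without the variance trend. Hsp90b1, the HSP90 of the ER, had 747, 678.1 and 700.9 against 616.1, 638.5 and 639.7 TPM (log2 fold change -0.17, SE 0.03, adjusted p = 0.00199, limma). Calr, which encodes the glycoprotein chaperone calreticulin, had 864.7, 817.6 and 811.8 against 818.6, 819.8 and 807.1 TPM, overlapping groups with a log2 fold change of -0.03 and a 95% interval from -0.09 to 0.03.

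Herpud1, a membrane scaffold of the HRD1 degradation complex, had 60.27, 51.4 and 65.05 TPM in wildtype and 44.6, 48.44 and 48.85 TPM in dKO cells (log2 fold change -0.31, SE 0.07, adjusted p = 0.0073, limma). The lowest wildtype replicate was only slightly above the highest dKO replicate.

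Xbp1 and Dnajb9 went the other way. Xbp1 had 168.5, 164.7 and 182.8 TPM in wildtype and 190.1, 204.9 and 203.4 TPM in dKO cells (log2 fold change 0.21, SE 0.05, adjusted p = 0.00813, limma). Dnajb9, which encodes the BiP co-chaperone ERdj4 that represses IRE1, had 6.156, 6.324 and 6.977 against 7.912, 9.961 and 9.256 TPM (log2 fold change 0.42, SE 0.12, adjusted p = 0.0406, limma). Neither pair of groups overlapped. The Dnajb9 result was the least firm of the 9: its adjusted p-value ranged from 0.0519 to 0.157 without wildtype vehicle replicate 1, 2 or 3, dKO vehicle replicate 2 or 3, wildtype MTOB replicate 2 or dKO 4-Cl-HIPP replicate 2. It was 0.0617 with a pseudocount of 0.1 and 0.0516 with TPM rescaled by median ratios (limma).

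When the model was fitted to the 6 vehicle samples alone, 4 of the 9 genes were left at an adjusted p-value below 0.05. Hspa5, Hsp90b1, Xbp1, Herpud1 and Dnajb9 then had adjusted p-values of 0.061 to 0.142 (limma). Their fold changes were unchanged by construction.

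**Figure D3:**
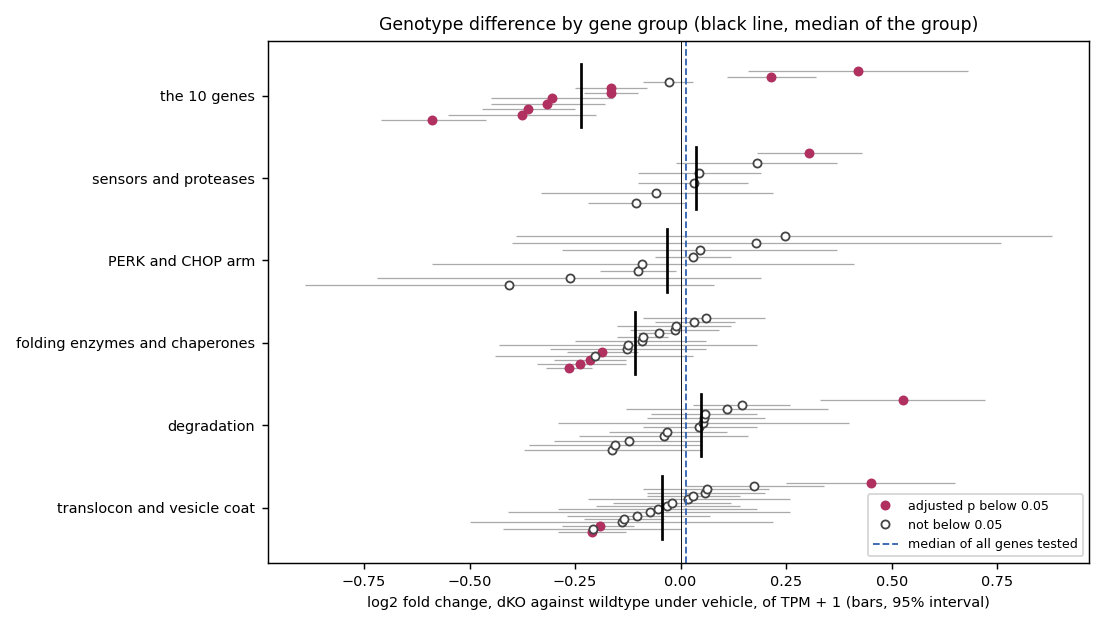
Log2 fold change of TPM + 1 between dKO and wildtype cells under vehicle (x axis) for the 10 genes and 5 lists of other pathway genes (rows); points are genes, bars 95% intervals, filled points have an adjusted p-value below 0.05 (limma), the black line is the median of the row and the dashed line the median of all genes tested. The median of the 10 genes is -0.24 and that of the folding enzymes and chaperones -0.11, and the other medians lie between -0.04 and 0.05.

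Other genes of the pathway were taken from 5 lists, of which 56 of 57 genes were tested. Of these, 6 were lower and 3 higher in dKO cells under vehicle at an adjusted p-value below 0.05, and 0 were called with the fold-change limit (limma), where 15 had an unadjusted p-value below 0.05. The 9 of 56 stand beside 10.7% of all genes (14.6% of those whose mean normalized count was 10 or more), and the 15 of 56 beside 21.4%. The 4 genes lower among 14 folding enzymes and chaperones were Ppib (log2 fold change -0.26), Txndc5 (-0.24), Hyou1 (-0.21) and P4hb (-0.19), which encode a prolyl isomerase, 2 disulphide isomerases (Txndc5 and P4hb) and a nucleotide exchange factor of BiP (Hyou1). 0 of the 14 were higher, and the median of this list was -0.11. In the translocon and vesicle coat list of 16, Ssr2 (-0.19) and Spcs3 (-0.21) were lower and Sec11c (0.45) was higher. These 7 genes are named because they passed the adjusted p-value.

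Of the sensors, Atf6 was higher in dKO cells, at 48.2 ± 0.638 against 38.9 ± 0.720 TPM (SD, n = 3; log2 fold change 0.30, adjusted p = 0.00237, limma). Ern1, which encodes IRE1, and Eif2ak3, which encodes PERK, had log2 fold changes of 0.18 (adjusted p = 0.254) and -0.06 (adjusted p = 0.876, limma). Of the PERK branch, Atf4 and Ddit3, which encodes CHOP, had -0.10 (adjusted p = 0.2) and -0.41 (adjusted p = 0.344, limma), the latter with an SE of 0.23 at 4.256 to 9.678 TPM in the vehicle samples.

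The levels of both genotypes were also compared under each inhibitor, by the overlap of replicates and with no further fit. Under 4-Cl-HIPP, the replicates of dKO and wildtype cells did not overlap for 9 of the 10 genes, the same 7 lower and 2 higher as under vehicle (25.2% of all genes tested did not overlap). Under MTOB, 6 of the 10 did not overlap, all lower in dKO cells (23.5% of all genes), and Hspa5, Xbp1 and Dnajb9 overlapped. The ratio of the dKO to the wildtype mean of Hspa5 was 0.892 under vehicle and 1.03 under MTOB, the opposite direction, and that of Pdia4 was 0.776 and 0.936. Under vehicle the share of all genes was 26.1%, beside 9 of the 10. Over all treatments, the 9 dKO samples lay below the 9 wildtype samples for Sdf2l1 (111.1 to 130 against 147.6 to 185.7 TPM), Pdia4 (95 to 106.3 against 106.6 to 137.6 TPM) and Manf (271.3 to 345.9 against 346.6 to 386.6 TPM), 3 of 10 genes where 5.26% of all genes were separated in either direction. For Pdia4 and Manf that separation rested on less than 1 TPM.

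MTOB changed the group in both directions and by little in wildtype cells. At an adjusted p-value below 0.05, Herpud1 rose and Pdia4, Sdf2l1 and Hsp90b1 fell, 4 of 10 genes beside 7.26% of all genes tested (3.8% higher and 3.46% lower) and 10.4% of those whose mean normalized count was 10 or more (limma). With the fold-change limit 0 of the 10 were called, beside 2.01% of all genes, and 6 of the 10 were below 0.05 in unadjusted p-value, beside 18.4%. Replicates did not overlap for the same 4 genes, beside 22.6% of all genes. The median log2 fold change of the 10 was -0.05, against -0.01 over all genes.

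Herpud1 had 72.43, 74.43 and 71.71 TPM with MTOB, above all wildtype vehicle replicates (60.27, 51.4 and 65.05 TPM; log2 fold change 0.31, SE 0.07, adjusted p = 0.0108, limma). Pdia4 had 106.6, 116.8 and 110.3 TPM with MTOB, below all vehicle replicates (log2 fold change -0.25, SE 0.05, adjusted p = 0.00529, limma). Sdf2l1 had 154.7, 147.6 and 150.9 TPM, also below all vehicle replicates (-0.24, SE 0.06, adjusted p = 0.0212, limma). Its adjusted p-value was 0.0616 to 0.0917 without wildtype vehicle replicate 1 or 3 or wildtype MTOB replicate 2 or 3, and 0.051 with TPM rescaled by median ratios.

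Hsp90b1 had 647.1, 653.6 and 623.9 TPM with MTOB, with no overlap (-0.14, SE 0.03, adjusted p = 0.0101, limma; 0.0533 without wildtype MTOB replicate 3 and 0.0916 without the variance trend). Hspa5, at 750.6, 811 and 734.1 TPM, overlapped with vehicle (-0.12, SE 0.04, adjusted p = 0.0906, limma; 0.026 without wildtype MTOB replicate 2). The other 5 genes had log2 fold changes between -0.11 (Xbp1) and 0.18 (Dnajb9). Without wildtype MTOB replicate 3, 2 genes were left past the adjusted p-value. With only the wildtype vehicle and MTOB samples in the fit there were 0, with adjusted p-values of 0.053 to 0.158 for the 4 genes (limma).

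In dKO cells, Herpud1 and Creld2 rose and Xbp1 fell with MTOB at an adjusted p-value below 0.05, 3 of 10 genes beside 6.58% of all genes tested (3.04% higher and 3.54% lower) and 9.38% of those whose mean normalized count was 10 or more (limma). With the fold-change limit 0 of the 10 were called, beside 1.63% of all genes, and 4 were below 0.05 in unadjusted p-value, beside 19%. Replicates did not overlap for 6 of the 10, beside 21% of all genes. Herpud1 had 58.99, 59.61 and 63.07 TPM against 44.6, 48.44 and 48.85 TPM under vehicle (log2 fold change 0.35, SE 0.07, adjusted p = 0.00495, limma). With MTOB it thus reached the range of wildtype cells under vehicle.

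Creld2 had 103.4, 95.82 and 103.2 TPM with MTOB against 76.1, 83.13 and 82.72 TPM in dKO cells (log2 fold change 0.32, SE 0.08, adjusted p = 0.0274, limma). Xbp1 had 162.6, 178.7 and 178.2 TPM against 190.1, 204.9 and 203.4 TPM (-0.20, SE 0.05, adjusted p = 0.0183, limma). Neither pair of groups overlapped. Both calls were lost in several alternatives, with adjusted p-values of 0.0559 to 0.108 for Creld2 without dKO vehicle replicate 1, 2 or 3 or dKO MTOB replicate 1 or 3, and of 0.0739 to 0.081 for Xbp1 without dKO vehicle replicate 2 or 3 or dKO MTOB replicate 1. Xbp1 also had 0.0536 without the variance trend (limma).

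Manf had 345.4, 323.9 and 345.9 TPM with MTOB, above the dKO vehicle replicates (0.21, SE 0.06, adjusted p = 0.0697, limma; 0.029 without dKO 4-Cl-HIPP replicate 1). Pdia4 and Sdf2l1, which fell in wildtype cells, had log2 fold changes of 0.02 and 0.04 in dKO cells, with 95% intervals of -0.09 to 0.12 and -0.09 to 0.16. The count of 3 went to 1 without dKO vehicle replicate 2 or 3 or dKO MTOB replicate 1, and to 4 without dKO 4-Cl-HIPP replicate 1. With only the 6 samples compared in the fit it was 1, Herpud1, whereas Creld2 had an adjusted p-value of 0.0625 and Xbp1 of 0.152 (limma).

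**Figure D4:**
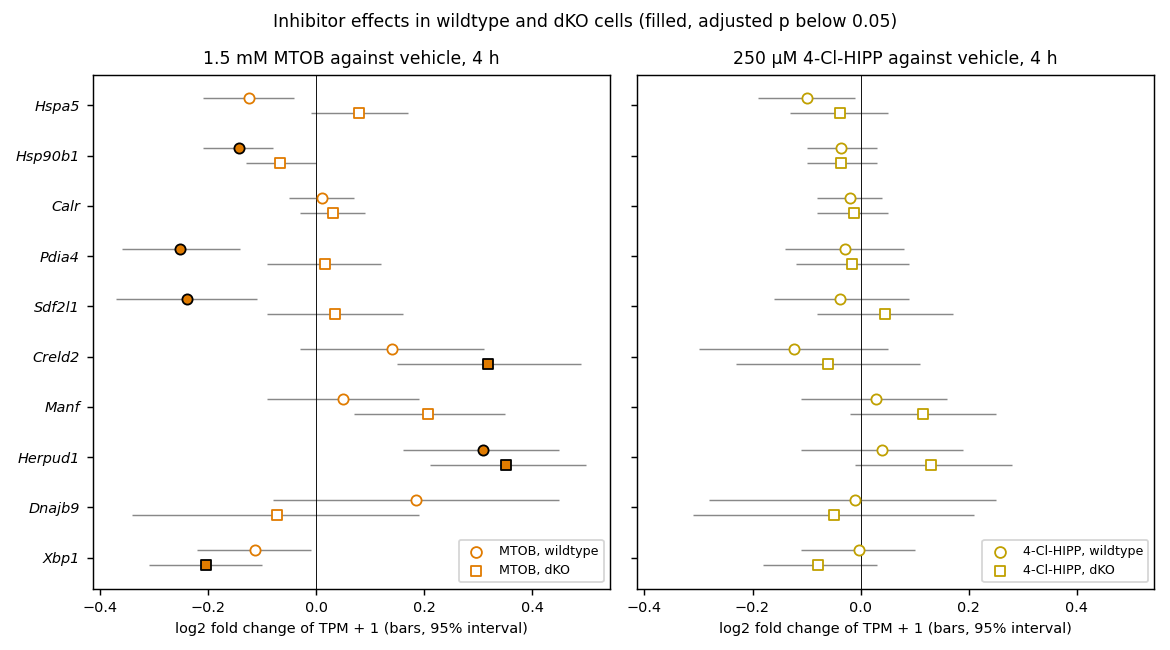
Log2 fold change of TPM + 1 against the vehicle of the same genotype (x axis) for the 10 genes (rows) after MTOB (left) and 4-Cl-HIPP (right); circles are wildtype and squares dKO cells, bars are 95% intervals and filled symbols have an adjusted p-value below 0.05 (limma). Herpud1 lies at 0.31 and 0.35 with MTOB, and 0 of 20 values pass with 4-Cl-HIPP.

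Whether the response to MTOB differed between genotypes was tested as an interaction. It passed the adjusted p-value for 0 of the 10 genes, beside 0.0916% of all genes tested, and 3 of the 10 had an unadjusted p-value below 0.05, beside 6.89% of all genes (limma). These were Pdia4, Hspa5 and Sdf2l1. The response of Pdia4 in wildtype minus that in dKO cells was -0.27 on the log2 scale (95% interval -0.42 to -0.12, adjusted p = 0.312, limma). For Sdf2l1 it was -0.27 (95% interval -0.45 to -0.10, adjusted p = 0.449, limma) and for Hspa5 -0.20 (95% interval -0.33 to -0.08, adjusted p = 0.397, limma). For Herpud1, which rose in both genotypes, the difference was -0.04 with a 95% interval from -0.25 to 0.16.

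Of the 56 other pathway genes, 3 rose and 4 fell with MTOB in wildtype cells at an adjusted p-value below 0.05, and 3 rose and 0 fell in dKO cells (limma). With the fold-change limit 0 were called in either genotype, where 17 and 14 were below 0.05 in unadjusted p-value. The 7 and 3 of 56 stand beside 7.26% and 6.58% of all genes (10.4% and 9.38% of those whose mean normalized count was 10 or more), and the 17 and 14 beside 18.4% and 19%. Atf4, the transcription factor of the PERK and amino acid response, rose from 200 ± 6.26 to 233 ± 7.34 TPM (SD, n = 3) in wildtype cells (log2 fold change 0.22, adjusted p = 0.00579, limma). In dKO cells it rose from 187 ± 6.06 to 222 ± 8.26 TPM (SD, n = 3; log2 fold change 0.25, adjusted p = 0.00269, limma). The median log2 fold change of the PERK and CHOP list was 0.40 in wildtype and 0.27 in dKO cells, but Atf4 was the 1 gene of its 8 past the adjusted p-value in each, and Ddit3 had 0.20 (adjusted p = 0.745) and 0.13 (adjusted p = 0.838, limma).

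Derl2, a gene of ER-associated degradation, rose in wildtype cells (log2 fold change 0.34) and Sec11c, a signal peptidase gene, in dKO cells (0.35). In the other genotype, Derl2 had 0.23 (dKO, adjusted p = 0.202) and Sec11c 0.15 (wildtype, adjusted p = 0.441, limma). The 4 genes that fell in wildtype cells were the protease gene Mbtps1 (-0.23), which encodes an enzyme that cleaves ATF6, and the disulphide isomerase genes Pdia3 (-0.08), Pdia6 (-0.11) and Txndc5 (-0.17). In dKO cells the values of Mbtps1, Pdia3 and Txndc5 were close to these, at -0.21 (adjusted p = 0.0564), -0.07 (0.0696) and -0.15 (0.0913), and that of Pdia6 was -0.02 (0.746, limma). The interaction passed for 0 of the 56 genes, and 3 had an unadjusted p-value below 0.05, beside 6.89% of all genes. These genes, too, are named because they passed the adjusted p-value. Atf6, Ern1 and Eif2ak3 had log2 fold changes of 0.05, 0.17 and -0.15 in wildtype cells and of 0.03, 0.03 and -0.05 in dKO cells, with adjusted p-values of 0.32 to 0.918 (limma).

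4-Cl-HIPP gave no detectable change of the 10 genes in either genotype. At an adjusted p-value below 0.05 there were 0 of 10 in wildtype cells, beside 0.366% of all genes tested, and 0 of 10 in dKO cells, beside 0.501% (limma), and 1 and 0 were below 0.05 in unadjusted p-value, beside 8.19% and 8.47%. With the fold-change limit 0 were called in both, beside 0.14% and 0.153%. The 1 gene was Hspa5, with 759.1, 801.8 and 772.1 TPM in treated wildtype cells, overlapping with vehicle (log2 fold change -0.10, SE 0.04, adjusted p = 0.532, limma). Creld2 had 93.97, 98.35 and 95.95 TPM, below all wildtype vehicle replicates (-0.12, SE 0.08, adjusted p = 0.787, limma). In dKO cells Herpud1 had 53.07, 50.44 and 52.02 TPM, above all vehicle replicates (0.13, SE 0.07, adjusted p = 0.655, limma). Creld2 and Herpud1 were the single genes of the 10 without overlap in their comparison, beside 12.6% and 13.7% of all genes.

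The precision was highest for the abundant chaperones. The 95% intervals of the 4-Cl-HIPP effect were -0.08 to 0.04 in wildtype and -0.08 to 0.05 in dKO cells for Calr, but -0.28 to 0.25 and -0.31 to 0.21 for Dnajb9, on the log2 scale. The interaction of 4-Cl-HIPP and genotype passed for 0 of 10 genes, beside 0% of all genes tested, with 0 of 10 at an unadjusted p-value below 0.05, beside 4.48% (limma), and the differences lay between -0.09 and 0.07. Of the 56 other pathway genes 0 passed the adjusted p-value in either genotype, beside 0.366% and 0.501% of all genes, and 7 in wildtype and 6 in dKO cells had an unadjusted p-value below 0.05, beside 8.19% and 8.47% (limma). MTOB and 4-Cl-HIPP were given at different doses, so their effects are shown side by side and were not compared.

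The genes whose pattern over the 18 samples was most like the mean of the 10 genes, after scaling each to unit variance, were Hyou1 (Pearson r = 0.911), Lrrc49 (0.898), Ybx1 (0.888), Tmem181a (0.875) and Zfhx4 (0.871), among 9277 other genes whose mean normalized count reached 50. Within groups, after subtracting group means, the values were 0.711, 0.696, 0.756, 0.477 and 0.526. The 10 genes themselves did not share a common pattern. Over the 18 samples, r between pairs of them ranged from -0.81 (Xbp1 and Manf) to 0.92 (Sdf2l1 and Pdia4). Within groups, the same pairs had r of -0.17 and 0.21. These are descriptions over samples that share genotypes and treatments. Hyou1, the exchange factor of BiP, measured 270 ± 2.52 TPM in wildtype and 233 ± 6.36 TPM in dKO cells under vehicle (SD, n = 3).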

How the data were processed

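RNA of 18 J774.1 cultures was sequenced, 3 biological replicates in each of 6 groups. The labels name polyA RNA and an unstranded TruSeq mRNA kit. The authors quantified transcripts with Salmon 1.9.0 against GRCm39 and deposited TPM per gene for every sample. They also deposited the mean normalized count of each gene, a signal used here for filtering and for the variance trend, and their own log2 fold changes and p-values, which were not used. TPM keep no depth, so the read depth per sample is unknown. TPM summed to 999766 to 999897 per sample, and replicates correlated with Pearson r of 0.983 to 0.987.

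The filter kept genes above the 10th percentile (0.222) of the mean normalized count. Log2(TPM + 1) of all 18 samples was fitted with limma 3.58.1 in R 4.3.3 (6 group means, empirical Bayes with a variance trend), and fold changes are on that scale, which understates changes of low genes. Interactions were called at an adjusted p-value below 0.05 alone. The code was tested on simulated data. Alternatives were other pseudocounts, filters, scaling and trend, a replicate block, the compared groups alone, and leaving out each sample. The 10 genes and the pathway lists were chosen with earlier results of these data known. Genes named were all 10, Ctbp1, Ctbp2, Atf6, Ern1, Eif2ak3, Atf4 and Ddit3 whatever their result, pathway genes called with the fold-change limit, of which there were 0, and the 5 most alike. Further pathway genes and the macrophage markers were named after their values were seen. The result of 1 gene of the pathway lists is counted but not reported here. Promoter sequences are on GRCm38.p6, a different build from that of the TPM, and were joined by gene symbol.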

Additional observations from a re-analysis of the deposited data

Results flagged for a closer look

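The values of Hspa5 with MTOB lay on opposite sides of the vehicle mean in the 2 genotypes. All 3 wildtype MTOB samples (750.6, 811 and 734.1 TPM) were below the wildtype vehicle mean of 834 TPM, and all 3 dKO MTOB samples (753, 784.7 and 820.3 TPM) were above the dKO vehicle mean of 744 TPM. Neither difference passed the test, with log2 fold changes of -0.12 (adjusted p = 0.0906) and 0.08 (adjusted p = 0.331, limma). The response in wildtype minus that in dKO cells was -0.2 on the log2 scale, and the interaction did not pass (adjusted p = 0.397, limma).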

How the results depend on the processing

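All 16 values of the 10 genes past the adjusted p-value kept their direction in the 26 alternatives. The filters, the trend, the replicate block and the fit of the compared groups leave a fold change between 2 groups as it was. So does leaving out a sample of another group. Direction was therefore tested only by the pseudocounts, the rescaling and samples left out of the compared groups. Of the 16 values, 5 stayed past the adjusted p-value in every alternative. When the fit held the compared groups alone, the genes past it went from 9 to 4 between genotypes, from 4 to 0 with MTOB in wildtype cells and from 3 to 1 in dKO cells; this fit has fewer samples. Without the fold-change limit the counts were 9, 4 and 3 in place of 1, 0 and 0. A pseudocount of 5 left 0 genes called between genotypes in place of 1. Leaving out 1 sample at a time gave 7 to 9 genes past the adjusted p-value between genotypes (0 to 1 with the fold-change limit), 2 to 4 with MTOB in wildtype and 1 to 4 in dKO cells, and 0 to 0 for 4-Cl-HIPP, the interactions and the MTOB calls with the limit. Deviations of same-numbered samples, taken over all genes tested with low ones included, correlated between -0.056 and 0.079. Whether same-numbered samples share a batch was not tested. With the replicate block the counts were 8, 4 and 3, Dnajb9 being lost between genotypes (adjusted p = 0.0596, limma), with 1 gene called with the limit. Of the 54 other values, 2 passed in some alternative, and 20 changed sign, none larger than 0.11 in size when they did. Depth is unknown, and low genes such as Dnajb9 were least precise.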
